A study of Mus musculus with 27 samples.

Results

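The plasma carrier proteins considered here are 8 genes chosen by symbol in the gene name column of the expression table, Alb, Afp, Gc, Ttr, Rbp4, Serpina7, Ambp and Hpx, of the 21823 genes in that table. All 8 were found, and all 8 were among the 12952 genes that passed the filter of at least 1 FPKM in at least 3 libraries. FPKM is fragments per kilobase of transcript, scaled between libraries, so levels of different genes can be set side by side per length of transcript. RNA sequencing was done on liver lobular zones cut out by laser microdissection from female wild-type mice, labelled C57BL/6 and given as C57BL/6N in the study's methods, that were not pregnant (NP) or had reached dpc8 or dpc16, where dpc counts days post coitum. Zone 1 lies around the portal vein, zone 3 around the central vein and zone 2 between them. Each of the 9 groups of stage and zone held 3 libraries, 27 in all. The mice of every group shared the same strain and genotype, and no transgene or agent was named for any of them. The labels do not tie the 3 libraries of a group to separate animals, so p-values measure the spread between these libraries, and libraries of different zones may come from the same mice.

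Hepatocytes make most of the proteins that carry poorly soluble cargo through the blood. Albumin, encoded by Alb, is the most abundant plasma protein and binds fatty acids, bilirubin and many hormones, and alpha-fetoprotein, encoded by Afp, is its relative in the fetal liver and yolk sac. Gc encodes the vitamin D binding protein of the same family. Transthyretin (Ttr) binds thyroxine and also holds retinol binding protein (Rbp4), the carrier of retinol, in the circulation, while Serpina7 encodes thyroxine-binding globulin. Hemopexin (Hpx) binds free heme, and Ambp encodes a precursor that is cleaved into alpha-1-microglobulin, which binds heme and radicals, and the protease inhibitor bikunin. The question put to these genes was how their RNA differs between zones and between stages of pregnancy.

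The zone labels held in the markers: over the mean of the stages, zone 1 exceeded zone 3 in all 10 periportal markers and lay below it in all 10 pericentral markers, and 9 and 10 passed without the 6 libraries named next. Depth, estimated from the steps between low FPKM values, was such that 1 read on 1 kb of transcript was worth 0.0300 to 0.133 FPKM. Although the mice are labelled female, the FPKM of the Y-linked genes Ddx3y, Eif2s3y, Kdm5d and Uty summed to 7.92 to 23.2 in 6 libraries and to at most 2.97 in the 21 others. Among the NP mice these were replicate 1 in zone 1 and replicate 2 in zone 3, among dpc8 mice replicate 1 in zone 1 and replicate 2 in zone 2, and among dpc16 mice replicate 3 in zones 2 and 3. In the same 6 libraries the mean log2(FPKM + 1) of 12 connective tissue and smooth muscle genes was 5.03 to 6.49, against 1.37 to 4.31 in the others, with none of the 12 at 0 in all libraries of either set. The mean of 9 fetal liver genes was 1.72 to 3.49 in these 6 and 0.227 to 1.38 in the others. The mean of 12 hepatocyte markers was 9.55 to 10.3 in these 6 and 10.3 to 11.9 in the others. Their part in the results was not tested, and the calls of the 8 genes are given with and without them. In bulk RNA of a dissected area, fewer cells of a type and less RNA per cell cannot be told apart.

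The levels of the 8 genes differed widely. Alb had the highest FPKM of all genes in each of the 27 libraries and took 3.71% to 21.0% of the FPKM sum. Gc, Ttr, Rbp4, Hpx and Ambp had group means between 927 and 7708 FPKM. Serpina7 had group means between 0.476 and 16.4 FPKM, and Afp did not exceed 1.37 FPKM in any library.

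**Figure D1:**
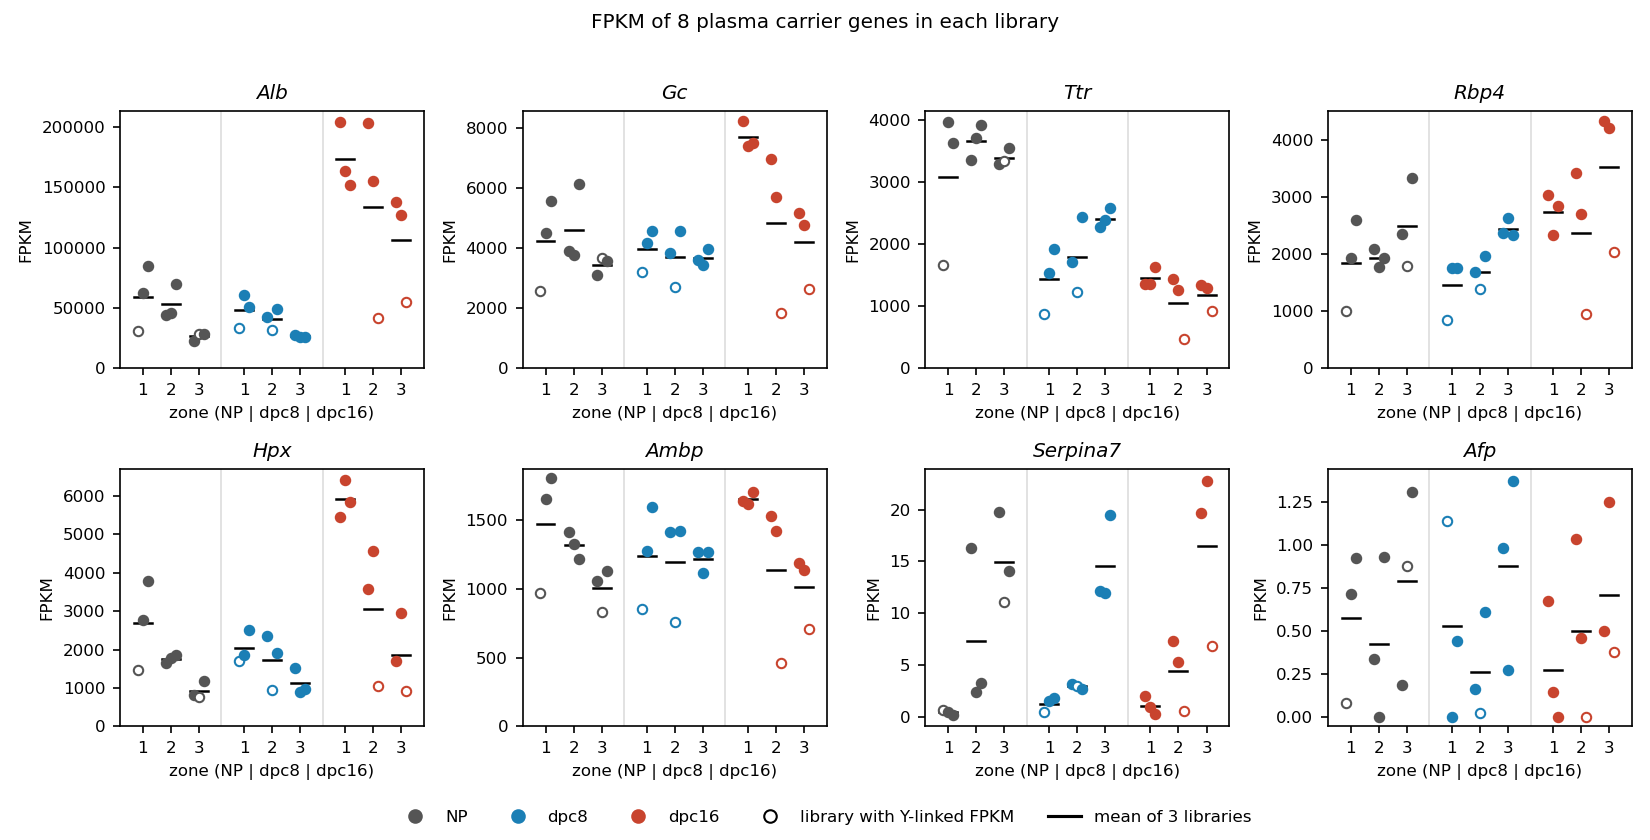
FPKM of the 8 genes (vertical axes, linear, 1 panel per gene) in zones 1 to 3 of NP, dpc8 and dpc16 mice (horizontal axes). Each point is 1 library, open points are the 6 libraries with Y-linked FPKM, and black bars are means of 3 libraries. Alb is at 126695 FPKM or more in the 7 filled dpc16 points, Ttr has its highest values in NP, and Serpina7 reaches at most 2.01 FPKM in zone 1.

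Over the mean of the 3 zones, 3 of the 8 genes changed at dpc16 against NP, with Alb and Hpx higher and Ttr lower, where limma called 11.8% of all genes tested, 5.65% higher and 6.15% lower. This split depends on the scaling: relative to the FPKM sum without Alb, 2.79% of all genes were called higher and 15.1% lower, and the median of all genes was -0.20. At dpc16 against dpc8, 2 of 8 changed, with Alb and Hpx higher, against 11.1% of all genes. Both calls of Hpx were lost when libraries of one stage and number were treated as correlated (adjusted p = 0.102 and 0.0832). At dpc8 against NP, limma called 0 of 8 genes and 0.108% of all genes, and 1 of the 8, Ttr, had an unadjusted p under 0.05, as did 6.11% of all genes. At dpc8 against NP in zones 1, 2 and 3 it called 0 of 8 in each, against 0.0309%, 0.00772% and 0.0154% of all genes. In these zones 1, 1 and 0 of the 8 had an unadjusted p under 0.05, against 3.13%, 5.06% and 2.74% of all genes. The median difference of the 8 genes in log2(FPKM + 1) was 0.16 at dpc16 against NP, where the median of all genes was -0.01. The sign of this median depends on the scaling, since it was -0.01 with quantile normalization, where 0 of the 8 were called higher and 2 lower, and -0.03 relative to the FPKM sum without Alb, where 2 were higher and 1 lower. Between zones 1 and 3, over the mean of the stages, 2 of 8 genes differed, with Hpx higher and Serpina7 lower in zone 1, against 5.59% of all genes. With the 6 libraries with Y-linked FPKM left out, 5 of 8 genes passed at dpc16 against NP and 6 of 8 in zone 1 against zone 3, where 16.6% and 8.18% of all genes were called, and 5 of 8 passed at dpc16 against dpc8 and 1 of 8 at dpc8 against NP, where 18.7% and 0.332% were.

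**Figure D2:**
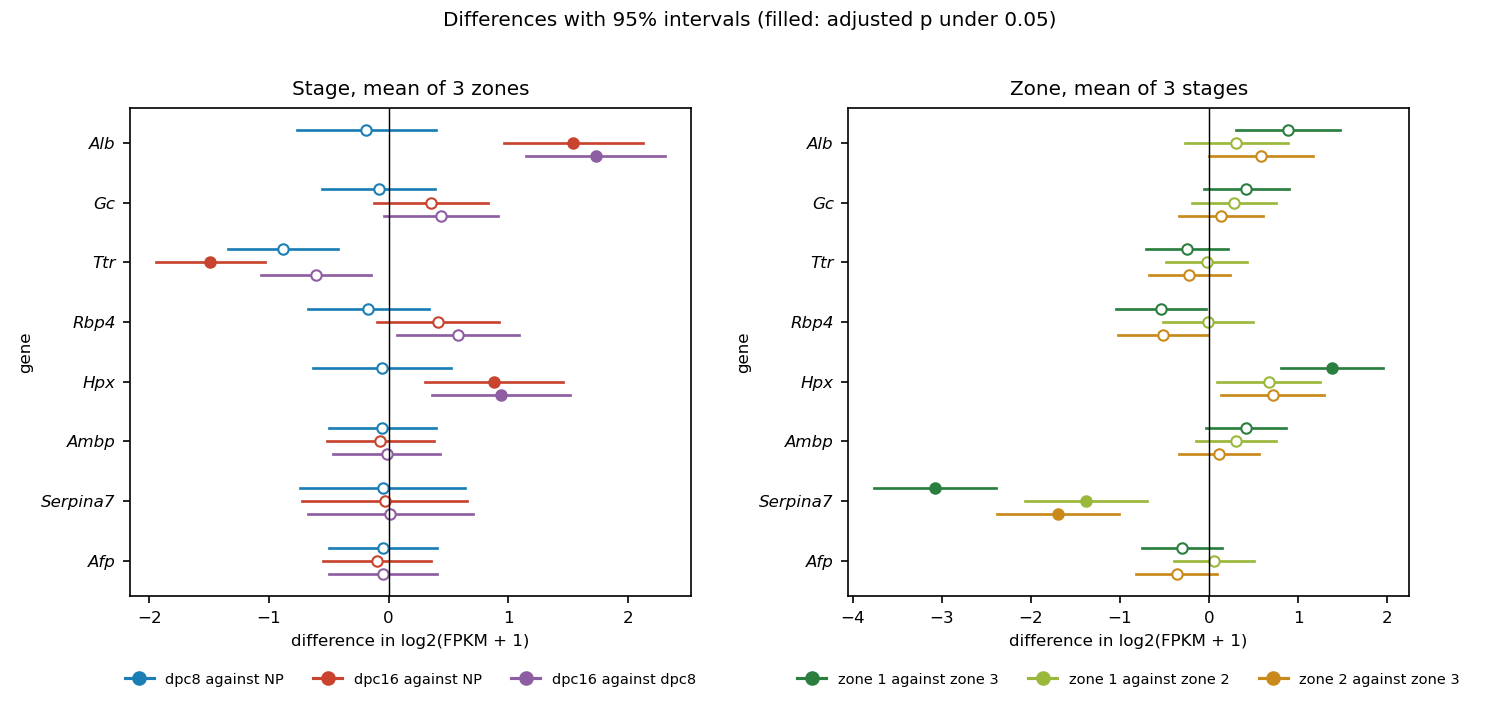
Differences in log2(FPKM + 1) (horizontal axes) of the 8 genes (vertical axes) between stages over the mean of 3 zones (left) and between zones over the mean of 3 stages (right). Circles are limma estimates, lines are 95% intervals, and filled circles passed the threshold of 0.05 after adjustment. Alb and Ttr lie on opposite sides of 0 at dpc16 against NP, and Serpina7 is the farthest from 0 between zones.

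Alb RNA in FPKM was 2.92-fold higher at dpc16 than in NP mice over the mean of the zones, and 3.32-fold higher than at dpc8. The size of these folds depends on the scaling. In the dpc16 libraries without Y-linked FPKM, the FPKM sum lay above that of every NP and dpc8 library. As a share of that sum, Alb took 6.15% to 12.0%, 7.14% to 10.6% and 3.71% to 5.02% in zones 1, 2 and 3 of NP. At dpc16 it took 17.3% to 20.6%, 7.98% to 21.0% and 9.59% to 16.5%. In NP mice, the 3 libraries of zone 1 gave 30723, 62556 and 84387 FPKM, those of zone 2 gave 44042, 45893 and 70074, and those of zone 3 gave 22396, 28226 and 28810. At dpc8 the values were 33701, 60653 and 50468 in zone 1, 42397, 31927 and 49527 in zone 2, and 27632, 26025 and 26297 in zone 3. At dpc16 they were 203747, 163523 and 151511 in zone 1, 203116, 154728 and 41785 in zone 2, and 137739, 126695 and 54993 in zone 3. In zones 1 and 3 the dpc16 values lay above those of NP and dpc8 without overlap, while in zone 2 they overlapped through dpc16 replicate 3, 1 of the 6 libraries with Y-linked FPKM.

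The difference of Alb in log2(FPKM + 1) over the mean of the zones was 1.54 ± 0.28 (SE) at dpc16 against NP, with an adjusted p of 0.000698 in limma, and 1.73 ± 0.28 at dpc16 against dpc8, with an adjusted p of 0.000226. Both passed on leaving out any of the 27 libraries in turn. In the 21 other libraries, these differences were 1.79 and 1.96. Quantile normalization sets each difference of Alb to 0 by construction, because Alb has the highest value in every library. Relative to the FPKM sum without Alb, the difference at dpc16 against NP in zone 3 was 1.78, against 1.91 in the main fit. Within single zones, dpc16 against dpc8 passed in zone 1 (1.87, adjusted p = 0.0469), where 1 of 8 genes was called against 2.01% of all genes, but leaving out any of 21 single libraries ended that call, with adjusted p up to 0.202. It was kept without NP zone 1 replicate 1 or 3, any library of dpc16 zone 2 or dpc16 zone 3 replicate 3. The other differences of Alb at dpc16 were 1.65, 1.07 and 1.91 against NP in zones 1, 2 and 3, and 1.43 and 1.89 against dpc8 in zones 2 and 3, with adjusted p from 0.0528 to 0.265. Once the 6 were left out, all 6 differences of Alb in single zones passed, from 1.24 to 2.38. Leaving out dpc16 zone 2 replicate 3 alone brought the other 5 past the threshold, with adjusted p from 0.00449 to 0.0185. The zone 3 differences also passed without NP zone 1 replicate 1, dpc16 zone 2 replicate 1 or dpc16 zone 3 replicate 3, and that against dpc8 without dpc8 zone 1 replicate 1. When libraries of one stage and number were treated as correlated, the differences in zone 3 passed against NP (adjusted p = 0.0324) and against dpc8 (adjusted p = 0.0356). At dpc8 against NP, Alb differed by -0.19, with a 95% interval from -0.77 to 0.40, and by -0.17 without the 6 libraries.

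In Alb, the 3 zone 1 values lay above the 3 zone 3 values at each stage, without overlap, and the group means ran from high to low in the order dpc16 zones 1, 2 and 3, NP zones 1 and 2, dpc8 zones 1 and 2, dpc8 zone 3 and NP zone 3. This order is not kept without the 6 libraries, when the mean of dpc16 zone 2 (178922 FPKM) lay above that of dpc16 zone 1 (172927 FPKM) and dpc8 zone 1 (55560 FPKM) above NP zone 2 (53336 FPKM). Neighbours in this order overlapped in their values except between dpc8 zone 2 and dpc8 zone 3, and between dpc16 zone 3 and NP zone 1 they overlapped through dpc16 zone 3 replicate 3, a library with Y-linked FPKM. The zone 1 minus zone 3 difference of 0.89 ± 0.28 over the mean of the stages did not pass the threshold, with an adjusted p of 0.0701. It passed without the 6 libraries (0.98, adjusted p = 3.51e-05) and when libraries of one stage and number were treated as correlated (adjusted p = 0.0198). It also passed on leaving out NP zone 1 replicate 1 (adjusted p = 0.0309), dpc16 zone 2 replicate 1 (0.0465) or dpc16 zone 2 replicate 3 (0.00931). In NP alone, zone 1 minus zone 3 of Alb passed without the 6 libraries (1.52, adjusted p = 0.00069) but not in the main fit.

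Afp lies next to Alb on chromosome 5, in the same orientation, yet its RNA was at the other end of the range. In mm10 with the GENCODE vM21 annotation, Alb spans chr5:90460897-90476602 and Afp spans chr5:90490737-90508907, both on the plus strand, with 14134 bases between them, and Gc spans chr5:89417522-89457898 on the minus strand. The starts of Alb and Afp are shown because these neighbours differed most in level among the 8 genes, and that of Serpina7 (chrX:139079257-139085236, minus strand) because it differed most between zones. RefSeq promoter sequences of build GRCm38.p6 were matched for Alb, Afp, Gc, Rbp4, Serpina7, Ambp and Hpx, each holding 250 bases before and 50 after the RefSeq start of a transcript. That start is the GENCODE start for Gc and Serpina7, lies 27, 23 and 40 bases before it for Alb, Afp and Rbp4, and 627 and 21 bases after it for Ambp and Hpx. They are written 5′ to 3′ on the strand of the gene, and capitals mark GTTAAT, part of the site bound by HNF1, searched on both strands.
Alb promoter, chr5:90460620-90460919, plus strand: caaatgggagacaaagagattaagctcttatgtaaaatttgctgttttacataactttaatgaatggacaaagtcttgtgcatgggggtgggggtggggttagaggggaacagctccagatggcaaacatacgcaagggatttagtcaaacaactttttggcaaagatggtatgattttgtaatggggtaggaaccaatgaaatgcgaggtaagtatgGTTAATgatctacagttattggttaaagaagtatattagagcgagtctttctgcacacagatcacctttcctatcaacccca
Afp promoter, chr5:90490464-90490763, plus strand: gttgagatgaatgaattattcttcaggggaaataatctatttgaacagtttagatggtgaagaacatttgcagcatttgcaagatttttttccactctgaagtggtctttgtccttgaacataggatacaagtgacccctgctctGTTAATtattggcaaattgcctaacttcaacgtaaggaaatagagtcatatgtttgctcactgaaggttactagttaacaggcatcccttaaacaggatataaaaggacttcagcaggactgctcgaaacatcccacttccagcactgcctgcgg
Serpina7 promoter, chrX:139085187-139085486, minus strand: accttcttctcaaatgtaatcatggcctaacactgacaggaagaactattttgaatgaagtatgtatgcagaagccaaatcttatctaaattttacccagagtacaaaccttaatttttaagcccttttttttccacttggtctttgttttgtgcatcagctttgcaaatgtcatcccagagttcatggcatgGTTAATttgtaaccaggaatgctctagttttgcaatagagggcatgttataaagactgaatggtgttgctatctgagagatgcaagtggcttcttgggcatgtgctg
The letters GTTAAT occur once in the windows of Alb, Afp, Gc and Serpina7, at 32, 105, 52 and 57 bases before the RefSeq start, and not in those of Rbp4, Ambp and Hpx. Of 27025 promoters of this length, 7.20% hold them, and TATAAA, which Afp and Serpina7 hold, is in 14.2%. These matches are letters in a window and were not tied to binding.

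Afp RNA was between 0 and 1.37 FPKM in all 27 libraries, listed at 0 in 4 of them, and ranked between 10250 and 15036 among the genes. The medians were 0.717 FPKM in NP, 0.444 at dpc8 and 0.457 at dpc16, and the ranges of the 3 stages overlapped. The difference at dpc16 against NP over the mean of the zones was -0.09, with a 95% interval from -0.54 to 0.36, and -0.02 without the 6 libraries. Of 8 tested fetal liver genes other than Afp, 1 was higher at dpc16 than in NP and 0 were lower by limma, where 5.65% of all genes were higher and 6.15% lower. The gene that passed was Peg3, an imprinted gene of the fetus and placenta, with a difference of 3.38. The median difference of these 8 genes was -0.02. Among the other 21 libraries alone, the counts were the same, 1 higher and 0 lower, against 8.54% and 8.05% of all genes. Of 14 transcription factors known to act on the Alb and Afp genes, Foxa3 was higher at dpc16 than in NP (1.37), and Foxa1 (-0.81), Zbtb20 (-0.78), a repressor of Afp after birth, and Foxa2 (-0.77) were lower. These counts, 1 higher and 3 lower of 14, stand against the same shares of all genes. Without the 6 libraries they were 2 and 3, against 8.54% and 8.05%, scaled to the FPKM sum without Alb they were 1 and 5, against 2.79% and 15.1%, and with quantile normalization 1 and 1, against 5.07% and 5.36%.

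Gc had the highest group mean after Alb among the 8 genes in all 9 groups. Without the 6 libraries with Y-linked FPKM, Ttr lay above it in NP zone 3, at 3430 against 3335 FPKM. The values of Gc in NP were 2588, 4512 and 5586 FPKM in zone 1, 3905, 3768 and 6129 in zone 2, and 3111, 3671 and 3559 in zone 3. At dpc8 they were 3203, 4188 and 4564 in zone 1, 3825, 2703 and 4557 in zone 2, and 3620, 3448 and 3985 in zone 3. At dpc16 they were 8240, 7397 and 7488 in zone 1, 6963, 5700 and 1847 in zone 2, and 5187, 4770 and 2655 in zone 3. Only in zone 1 did the dpc16 values of Gc lie above both NP and dpc8 without overlap. No comparison of Gc passed the threshold in the main limma fit of all 27 libraries: the difference at dpc16 over the mean of the zones was 0.36 ± 0.23 against NP (adjusted p = 0.38) and 0.44 ± 0.23 against dpc8 (adjusted p = 0.254). With these 6 libraries left out, it was 0.56 against NP (adjusted p = 0.00189) and 0.62 against dpc8 (adjusted p = 0.000899), and zone 1 was higher than zone 3 by 0.49 (adjusted p = 0.00832). The direction of Gc depends on the scaling: with quantile normalization it was lower at dpc16 than at dpc8, by -0.32 (adjusted p = 0.0294). In zone 1 alone, dpc16 against dpc8 passed in 2 of 10 alternative fits, with differences from -0.26 to 0.97 over the 10.

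Ttr RNA went the other way from Alb. It fell to 0.356 of the NP level at dpc16 over the mean of the zones, and was 0.543 of the NP level at dpc8, which did not pass the threshold. In NP mice the values were 1663, 3974 and 3633 FPKM in zone 1, 3368, 3721 and 3923 in zone 2, and 3303, 3338 and 3557 in zone 3. At dpc8 they were 870, 1537 and 1926 in zone 1, 1722, 1235 and 2444 in zone 2, and 2274, 2387 and 2591 in zone 3. At dpc16 they were 1362, 1363 and 1632 in zone 1, 1442, 1264 and 479 in zone 2, and 1343, 1304 and 921 in zone 3. In each zone the dpc16 values lay below the NP values without overlap, and in zones 2 and 3 so did the dpc8 values. Among all genes of a library, Ttr ranked 13 to 24 in NP and 61 to 138 at dpc16.

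The difference of Ttr at dpc16 against NP was -1.49 ± 0.22 over the mean of the zones, with an adjusted p of 7.72e-05, and -1.40 without the 6 libraries. In single zones it was -1.94 in zone 2 (adjusted p = 0.00559) and -1.53 in zone 3 (adjusted p = 0.0462), where limma called 2.66% and 1.32% of all genes and Ttr was the 1 called gene of the 8. In zone 1 it was 0.502 of the NP level, with an adjusted p of 0.286, where 0 of 8 genes and 1.37% of all genes were called and 4 of the 8 and 11% of all genes had an unadjusted p under 0.05. NP zone 1 replicate 1, with 1663 FPKM, has Y-linked FPKM, and without the 6 libraries zone 1 passed at -1.39 (adjusted p = 4.86e-05). The call in zone 3 was lost on leaving out any of 18 single libraries, with adjusted p up to 0.154, and kept without NP zone 1 replicate 1 or 2, any library of dpc16 zone 2, dpc8 zone 1 replicate 1 or 3, or dpc8 zone 2 replicate 2 or 3. In zone 3 it was also lost without the filter (adjusted p = 0.0557), with median-of-ratios scaling (0.0552) and with only the groups compared (0.0990), and the call in zone 2 was lost when only the groups compared were fitted (adjusted p = 0.303). The change of Ttr did not differ between zones by a test of the difference itself: the dpc16 change in zone 1 minus that in zone 2 was 0.94, with a 95% interval from -0.18 to 2.06.

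At dpc8 against NP, Ttr differed by -0.88 ± 0.22 over the mean of the zones, with an unadjusted p of 0.000601 and an adjusted p of 0.212. It passed without the 6 libraries at -0.83 (adjusted p = 0.000324), as it then did in zone 1 alone (-1.14, adjusted p = 0.0165), and on leaving out dpc16 zone 2 replicate 3 alone (adjusted p = 0.0482). It also passed with quantile normalization (adjusted p = 0.00231), array weights (0.00286), the mean of connective tissue genes as a covariate (0.000506) and scaling to the FPKM sum without Alb (0.0213). At dpc16 against dpc8, Ttr differed by -0.61 ± 0.22 (adjusted p = 0.0812), and by -0.57 without the 6 libraries (adjusted p = 0.000408). In those same 4 fits its adjusted p was 1.50e-05, 0.00276, 7.40e-05 and 0.000247. The difference also passed on leaving out dpc16 zone 2 replicate 1 (adjusted p = 0.0442) or dpc8 zone 1 replicate 1 (0.0338). Ttr did not pass between zones, where zone 1 minus zone 3 was -0.25 over the mean of the stages, with a 95% interval from -0.71 to 0.21.

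Rbp4, whose protein travels bound to transthyretin, did not fall with Ttr. NP values were 1012, 1931 and 2595 FPKM in zone 1, 2088, 1781 and 1937 in zone 2, and 2358, 1800 and 3338 in zone 3. At dpc8 they were 852, 1755 and 1766 in zone 1, 1685, 1401 and 1970 in zone 2, and 2375, 2631 and 2345 in zone 3. At dpc16 they were 3034, 2349 and 2857 in zone 1, 3426, 2717 and 961 in zone 2, and 4337, 4220 and 2037 in zone 3. The NP and dpc16 values of Rbp4 overlapped in each zone, while dpc16 lay above dpc8 without overlap in zone 1. The difference at dpc16 over the mean of the zones was 0.41 ± 0.24 against NP (adjusted p = 0.332) and 0.58 ± 0.24 against dpc8 (adjusted p = 0.139). In the 21 other libraries, it was 0.52 against NP (adjusted p = 0.00231) and 0.73 against dpc8 (adjusted p = 0.000123). Leaving out dpc16 zone 2 replicate 3 alone also brought the latter past the threshold (0.77, adjusted p = 0.0161). Over 10 alternative fits, the difference against dpc8 ran from 0.11 to 0.73, with adjusted p from 0.000123 to 0.732, and 3 passed. Rbp4 leaned to zone 3, with zone 1 minus zone 3 at -0.54 ± 0.24 over the mean of the stages (adjusted p = 0.285), and at -0.48 without the 6 libraries (adjusted p = 0.00649). This difference also passed with quantile normalization (-0.47, adjusted p = 0.0411) and array weights (-0.52, adjusted p = 0.0239).

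Since both RNAs come from one library, their ratio does not depend on how that library was scaled. The ratio of Rbp4 to Ttr was 0.479 to 0.938 in the 9 NP libraries (median 0.609), 0.806 to 1.14 in the 9 dpc8 libraries (median 0.979) and 1.72 to 3.24 in the 9 dpc16 libraries (median 2.21). Every dpc16 library lay above every NP and dpc8 library, and NP and dpc8 overlapped. Over the mean of the zones, the ratio was 3.74-fold higher at dpc16 than in NP and 2.28-fold higher than at dpc8, and 1.64-fold higher at dpc8 than in NP. In an exact two-sided permutation of stage labels within zones, p was 0.00025 for both comparisons of dpc16, the smallest that 8000 arrangements allow, and 0.0005 for dpc8 against NP. Adjusted over 24 tests of ratios, these p-values were 0.0005, 0.0005 and 0.000857. Once the 6 were left out, the folds were 3.79, 2.46 and 1.54, with exact p of 0.00167, 0.00167 and 0.00333. Averaged over the zones for each replicate number, the ratio was 0.501 to 0.692 in NP, 0.875 to 1.13 at dpc8 and 1.98 to 2.58 at dpc16, without overlap between stages. The test within zones takes the 9 libraries of a stage as independent, whereas those of one number deviated together at dpc16. Permuting whole numbers, 3 against 3, gave an exact p of 0.1 for each of the 3 comparisons, the smallest that 20 arrangements allow. The tests of ratios were added after the values had been seen.

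**Figure D3:**
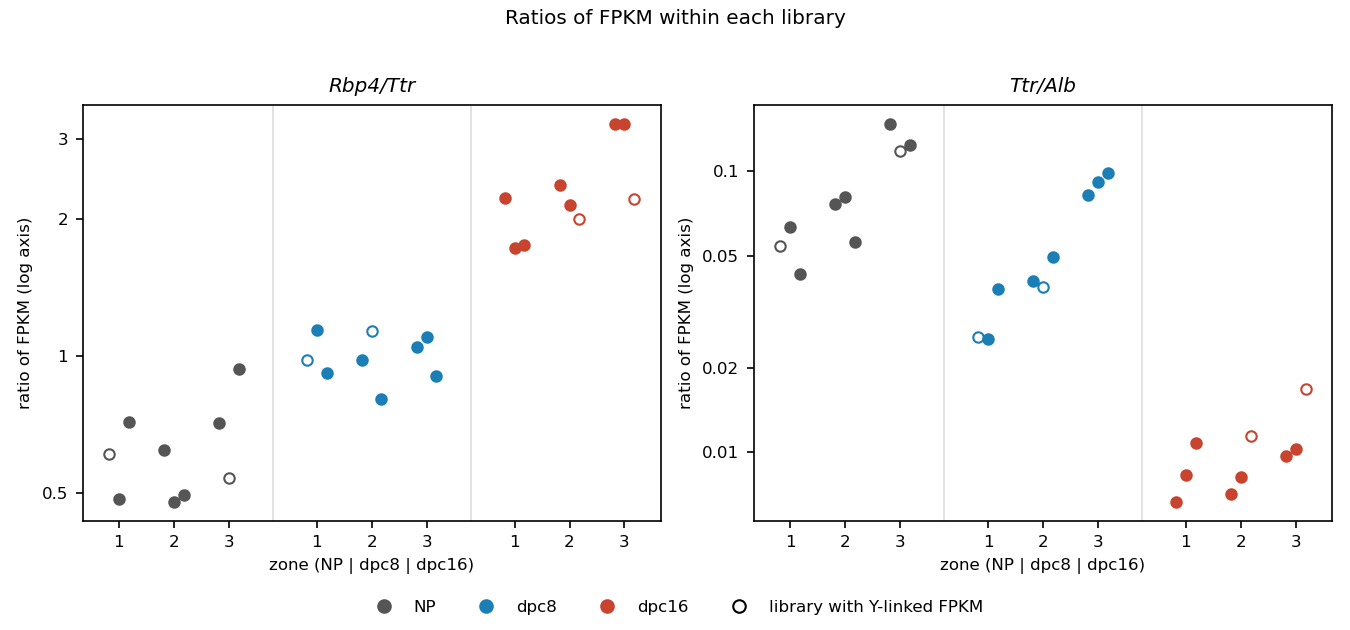
Ratio of Rbp4 to Ttr (left) and of Ttr to Alb (right) within each library, on log axes, in zones 1 to 3 of NP, dpc8 and dpc16 mice. Each point is 1 library, and open points are libraries with Y-linked FPKM. All 9 dpc16 libraries are at 1.72 or more on the left and at 0.0168 or less on the right, apart from the other stages.

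The ratios of the other abundant carriers to Alb all contain the higher Alb at dpc16. Over the mean of the zones Alb was 2.92-fold higher at dpc16 than in NP, so a gene of unchanged FPKM would have a ratio to Alb 0.343 of that in NP. Unlike the ratios, this reference value depends on how the libraries were scaled. A place above or below it restates the change of a gene in FPKM. The ratio of Ttr to Alb was 0.0431 to 0.147 in NP, 0.0253 to 0.0985 at dpc8 and 0.00668 to 0.0168 at dpc16, and at dpc16 it was 0.122 of the NP ratio, below the value of an unchanged gene. The same fold was 0.327 for Ambp, near that value, and 0.439 for Gc, 0.457 for Rbp4 and 0.633 for Hpx, above it. Without the 6 libraries, where the value of an unchanged gene was 0.288, the folds were 0.109 for Ttr, 0.301 for Ambp, 0.426 for Gc, 0.413 for Rbp4 and 0.609 for Hpx. At dpc8 against NP, Ttr to Alb was 0.617 of the NP ratio (exact permutation p = 0.00025 within zones and 0.1 over whole numbers), where an unchanged gene would be at 1.14, while the folds of the other 4 ratios to Alb were 1.01 to 1.10, with exact p from 0.116 to 0.895.

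Serpina7, encoding thyroxine-binding globulin, was the gene of the 8 with the largest difference between zones, and it was higher toward the central vein. In NP mice the 3 libraries gave 0.690, 0.515 and 0.223 FPKM in zone 1, 16.3, 2.40 and 3.26 in zone 2, and 19.8, 11.1 and 14.1 in zone 3. At dpc8 they gave 0.452, 1.51 and 1.78 in zone 1, 3.20, 2.99 and 2.72 in zone 2, and 12.1, 12.0 and 19.4 in zone 3. At dpc16 they gave 2.01, 0.980 and 0.252 in zone 1, 7.30, 5.28 and 0.602 in zone 2, and 19.7, 22.8 and 6.85 in zone 3. At each stage all zone 3 values lay above all zone 1 values, while zone 2 overlapped zone 3 in NP and dpc16 and zone 1 at dpc16.

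Zone 1 minus zone 3 of Serpina7 was -3.41 ± 0.57 in NP (adjusted p = 0.00109), -2.81 ± 0.57 at dpc8 (adjusted p = 0.00846) and -3.01 ± 0.57 at dpc16 (adjusted p = 0.0036). In each of these 3 comparisons Serpina7 was the 1 called gene of the 8, against 1.34%, 1.61% and 1.55% of all genes. Over the mean of the stages it was lower in zone 1 than in zone 3 by -3.08 ± 0.33 (adjusted p = 8.51e-07). Zone 2 differed from zone 3 by -1.69 ± 0.33 (adjusted p = 0.0046), where 1 of 8 genes and 1.88% of all genes were called. Zone 1 differed from zone 2 by -1.38 ± 0.33 (adjusted p = 0.045), where 1 of 8 genes and 0.919% of all genes were called. That last call was lost on leaving out any of 21 single libraries, with adjusted p up to 0.123. It was kept without NP zone 2 replicate 2 or 3, dpc16 zone 1 replicate 1, dpc16 zone 2 replicate 3 or dpc16 zone 3 replicate 2 or 3. The call at dpc8 was lost without dpc8 zone 1 replicate 1 (adjusted p = 0.0641) or dpc8 zone 3 replicate 3 (0.0668). Among the other 21 libraries alone, zone 1 minus zone 3 was -3.70, -2.52 and -3.50 in NP, dpc8 and dpc16, and -3.24 over the mean of the stages. The pseudocount of 1 shrinks these differences, and with 0.1 in its place the difference over the mean of the stages was -4.11. No stage comparison of Serpina7 passed, and its difference at dpc16 against NP was -0.03, with a 95% interval from -0.72 to 0.65.

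Hpx RNA was higher in zone 1 than in zone 3, 2.61-fold over the mean of the stages, and 1.85-fold higher at dpc16 than in NP. NP values were 1477, 2781 and 3785 FPKM in zone 1, 1655, 1778 and 1859 in zone 2, and 826, 775 and 1181 in zone 3. At dpc8 they were 1706, 1868 and 2515 in zone 1, 2353, 947 and 1907 in zone 2, and 1532, 900 and 964 in zone 3. At dpc16 they were 5462, 6419 and 5855 in zone 1, 3581, 4567 and 1041 in zone 2, and 1700, 2941 and 915 in zone 3. Zone 1 lay above zone 3 without overlap at each stage, and the dpc16 values lay above NP and dpc8 without overlap in zone 1 only.

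Over the mean of the stages, zone 1 minus zone 3 of Hpx was 1.38 ± 0.28 (adjusted p = 0.0025), and 1.36 without the 6 libraries. At single stages it was 1.45 in NP, 0.86 at dpc8 and 1.83 at dpc16, with adjusted p of 0.236, 0.486 and 0.0614. Without the 6 libraries the differences in NP (1.71, adjusted p = 0.00219) and at dpc16 (1.40, adjusted p = 0.00465) passed. With quantile normalization these also passed (adjusted p = 0.00059 and 0.0223). The difference at dpc16 passed when libraries of one stage and number were treated as correlated (adjusted p = 0.0141). It also passed on leaving out any of 5 single libraries, namely NP zone 1 replicate 1, dpc16 zone 2 replicate 2 or 3, dpc16 zone 3 replicate 2 or dpc8 zone 2 replicate 2, with the lowest adjusted p, 0.00926, without dpc16 zone 2 replicate 3. The stage difference over the mean of the zones was 0.88 ± 0.28 at dpc16 against NP (adjusted p = 0.0402) and 0.94 ± 0.28 against dpc8 (adjusted p = 0.0303). Both were lost with libraries of one stage and number correlated (adjusted p = 0.102 and 0.0832), and on leaving out any of 14 and 9 single libraries respectively, with adjusted p up to 0.0957 and 0.0751. The libraries without which the first was kept were NP zone 1 replicate 3, NP zone 3 replicate 3, dpc16 zones 2 and 3 replicate 3 and the 9 of dpc8. The second was lost without dpc16 zone 1 replicate 2, dpc16 zone 2 replicate 1 or 2, dpc16 zone 3 replicate 1 or 2, dpc8 zone 1 replicate 2, dpc8 zone 2 replicate 2 or dpc8 zone 3 replicate 2 or 3. Without the 6 libraries they were 1.08 (adjusted p = 0.000138) and 1.13 (adjusted p = 8.05e-05).

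No comparison of Ambp passed the threshold in the main limma fit of all 27 libraries. Its 27 values lay between 458 and 1803 FPKM, and its highest group mean, 1653 ± 46.1 (SD, n = 3) in dpc16 zone 1, overlapped NP zone 1 at 1474 ± 446. At dpc16 against NP it differed by -0.07 ± 0.22 over the mean of the zones, with a 95% interval from -0.52 to 0.38, and by 0.06 without the 6 libraries. With quantile normalization Ambp was lower at dpc16 than in NP by -0.40 (adjusted p = 0.0456). Zone 1 minus zone 3 was 0.41 ± 0.22 over the mean of the stages (adjusted p = 0.383), and 0.47 without the 6 libraries (adjusted p = 0.000537). At dpc16 the 3 zone 1 values of 1635, 1618 and 1705 FPKM lay above the zone 3 values of 1187, 1135 and 710.

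Across the 8 genes, zones 1 and 3 had ranges apart for 3 genes in NP, 5 at dpc8 and 6 at dpc16, where 12.7%, 23.2% and 14.7% of all genes did not overlap. Ttr was among them at dpc8, with zone 1 lower, and at dpc16, with zone 1 higher, while its tested differences of -0.82 and 0.30 did not pass (adjusted p = 0.387 and 0.948). Between dpc16 and NP 4, 1 and 2 genes had ranges that did not overlap in zones 1, 2 and 3, against 17.4%, 17.4% and 16.7% of all genes. Between dpc16 and dpc8 the counts were 5, 0 and 2, against 19.9%, 13.8% and 23.3%. Between dpc8 and NP they were 0, 1 and 1, with Ttr as the 1 gene in zones 2 and 3, against 6.52%, 10% and 9.81%. By limma, 0 of 8 genes differed between zones in their change at dpc8 or dpc16, with 0 of 8 also at an unadjusted p under 0.05 and at most 0.0540% of all genes called. With the 6 libraries left out, this was again 0 of 8, against at most 0.0386% of all genes. The same 21 libraries gave 2, 4 and 3 calls among the 8 genes at dpc16 against NP in zones 1, 2 and 3, against 2.92%, 4.45% and 3.61% of all genes. They gave 4, 2 and 4 at dpc16 against dpc8, against 4.38%, 3.91% and 3.87%, and 1, 0 and 0 at dpc8 against NP, against 0.0695%, 0.0386% and 0.0695%. Zone 1 against zone 3 gave 4 in NP, 2 at dpc8 and 3 at dpc16 in these libraries, against 1.81%, 2.76% and 2.71%. The comparisons of dpc8 and dpc16 with NP share the NP libraries.

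The carrier genes stand among other plasma proteins and the genes that handle their cargo. Of 18 tested genes of other plasma carriers, 9 were higher at dpc16 than in NP over the mean of the zones and 0 were lower, with a median difference of 0.63, against 5.65% higher among all genes. With these 6 libraries left out, 16 were higher and 0 lower, against 8.54% higher among all genes. With quantile normalization 6 were higher, and scaled to the FPKM sum without Alb 8 were, with 0 lower in both. The shares of all genes under these 2 scalings are those given above for the transcription factors. The largest differences were those of Serpina6, encoding corticosteroid-binding globulin (5.63), A1bg (3.16), Cp, encoding the copper carrier ceruloplasmin (2.68), and Itih4 (2.57). At dpc8 against NP, 1 of the 18, A1bg, was higher and 0 were lower, against 0.0772% and 0.0309% of all genes, and without the 6 libraries 1 was higher and 2 lower, against 0.239% and 0.0926%. Between zones, A1bg (1.84) and Afm, encoding the vitamin E binding afamin (0.77), were higher in zone 1 than in zone 3 and 0 of the 18 were lower, against 2.7% higher and 2.89% lower among all genes. The counts were 7 higher and 2 lower without the 6 libraries, against 4.25% and 3.93%, 4 and 1 with quantile normalization, against 2.39% and 2.81%, and 3 and 2 scaled to the FPKM sum without Alb, against 2.88% and 3.17%.

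Genes of thyroid hormone handling were lower at dpc16 than in NP in 5 of 8 tested, with 0 higher and a median of -0.81, against 6.15% lower among all genes, and in 4 of 8 without the 6 libraries, against 8.05%. With median-of-ratios scaling the count was 4, where 7.59% of all genes were called over the pooled stage comparisons, against 7.66% in the main fit. With quantile normalization it was also 4, and the share of all genes lower under that scaling is given above for the transcription factors. The 5 genes included the transporters Slco1b2 (-1.73) and Slc16a10 (-1.14) and the receptors Thra (-0.73) and Thrb (-0.59). In zone 1, 4 of the 8 were lower than in zone 3 and 0 higher, against 2.89% lower among all genes, among them Slco1a1 (-4.60), Slco1b2 (-2.58) and Slc16a10 (-2.14). The count lower was also 4 without the 6 libraries, against 3.93%, and 3 with quantile normalization, against 2.81%. Of 12 tested genes of retinoid handling, 2 were higher and 4 lower at dpc16 than in NP, against 5.65% and 6.15% of all genes. Without the 6 libraries they were 3 and 4, against 8.54% and 8.05%. Aldh1a7 (3.04) and Bco1, which cleaves beta-carotene (1.67), were higher, and Lrat, which esterifies retinol (-1.62), and Dhrs3, which reduces retinal (-1.41), were lower. Between zones, 2 of the 12, Aldh1a1 (-1.88) and Rdh16 (-1.46), were lower in zone 1 than in zone 3 and 0 were higher, against 2.89% and 2.7% of all genes. Without the 6 libraries 2 were higher and 3 lower, against 4.25% and 3.93%, and scaled to the FPKM sum without Alb 1 was higher and 2 lower, against 2.88% and 3.17%. Of 6 tested receptors and recycling genes, 0 passed at dpc16 against NP by limma, with a median of 0.0023, and 1 was higher without the 6 libraries, against 8.54% higher among all genes. The sign of this median depends on the scaling: relative to the FPKM sum without Alb it was -0.24, and 1 was lower.

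Markers of other cells moved in part with the stages and zones. At dpc16 against NP, 3 of 6 Kupffer cell markers and 1 of 6 endothelial markers were lower, 1 of 8 tested blood cell markers was higher, and 0 of 5 tested biliary and 0 of 12 connective tissue markers passed by limma. Of 12 hepatocyte markers, 3 were higher and 1 lower. Among all genes 5.65% were higher and 6.15% lower. Scaled to the FPKM sum without Alb, 5 of 6 Kupffer cell, 2 of 6 endothelial, 2 of 8 blood cell and 1 of 12 connective tissue markers were lower, against 15.1% of all genes. Between zones 1 and 3, 3 of 5 biliary markers (Spp1, Sox9 and Epcam) and 1 of 6 Kupffer cell markers were higher in zone 1, 1 of 12 connective tissue markers was higher and 2 were lower, 2 of 12 hepatocyte markers were higher, and 0 of 6 endothelial and 0 of 8 blood cell markers passed by limma, against 2.7% higher and 2.89% lower among all genes. Without the 6 libraries these counts were the same except for the hepatocyte markers, with 4 higher and 1 lower. Their part in the changes of the carrier genes was not tested.

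The genes whose log2(FPKM + 1) ran most closely with each carrier over the 27 libraries were found by Pearson's r, as a description, since the libraries share depth, zone and stage. For Alb they were Apoc2 (0.957), Hsd11b1 (0.950) and Serpina1b (0.941). For Ttr they included Slc25a23 (0.921) and Lrat (0.914), of which Lrat handles retinol. For Rbp4 they were Apoa2 (0.935), Clcn3 (0.913) and Idh1 (0.907). For Serpina7 they were Aldh3a2 (0.935), Lhpp (0.924), which is in the pericentral marker list, and Cyp2c39 (0.915). For Hpx they were Afm (0.919), F11r (0.906) and Apoa4 (0.902), for Gc Azgp1 (0.926), Serpina1c (0.914) and Serpina1d (0.914), and for Ambp H2-Q10 (0.968), Dmgdh (0.920) and Bhmt2 (0.914). The values of Ambp without the 6 libraries were 0.853, 0.676 and 0.647. For the other genes named here they were 0.800 to 0.973, apart from those of Afp. For Afp the highest were Chd1l (0.691), Mup9 (0.686) and Mup1 (0.684), at an Afp level near 0. Serpina1 and Mup genes have near-identical copies, between which uniquely mapped reads may be split. Within the 8 genes, r was 0.850 for Alb with Hpx and 0.800 for Alb with Gc, and -0.287 for Alb with Ttr. In the 21 other libraries, these were 0.869, 0.910 and -0.652, and r for Ttr with Rbp4 went from 0.253 to -0.427.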

How the data were processed

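RNA of microdissected lobular zones was sequenced in 27 libraries, 3 for each of 9 groups of stage and zone. The authors trimmed reads with cutadapt, aligned them to mm10 with HISAT2 2.1.0, and deposited FPKM per protein-coding gene from Cuffdiff (Cufflinks 2.2.1). No counts were used here. All 27 columns were matched to samples by their labels.

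FPKM were taken as log2(FPKM + 1), and genes with at least 1 FPKM in at least 3 libraries were kept. One model with 9 group means was fitted with limma 3.58.1 in R 4.3.3, with a mean-variance trend and robust variances. Tests were two-sided, p-values were adjusted by Benjamini-Hochberg over all 12952 genes in each comparison, and the threshold was 0.05. Comparisons between stages averaged the zones, comparisons between zones averaged the stages, and both were also made within single zones or stages. Ratios of 2 genes in a library were tested by exact permutation of labels within zones or stages, with 24 tests adjusted together, and of whole replicate numbers. Genes named were the 8 carriers, up to 4 genes of a list in a comparison, chosen among those that passed by the size of the difference, and the 3 genes with the highest Pearson's r to each carrier. Of the genes this rule gives, 1 is not reported here. The members and lists were chosen with earlier results of these data known.

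The number of a replicate is not explained in the labels. Libraries of one stage and number deviated together at dpc16, where all 9 pairs of zones had correlations over 0.1 (0.263 to 0.863), but in 4 of 9 pairs in NP and 5 of 9 at dpc8. The fit that treated such libraries as correlated used a single correlation of 0.193 for all stages. The median over the pairs was 0.0125 in NP, 0.290 at dpc8 and 0.358 at dpc16. Alternatives were another pseudocount, no filter, other scalings, array weights, a connective tissue covariate, replicate blocks, fits of the groups compared alone, and leaving out each library or the 6 with Y-linked FPKM. Median-of-ratios factors of the deposited FPKM were 0.980 to 1.05, while the FPKM sums ran from 499866 to 988500. That scaling was therefore nearly a repeat of the main fit. Scaling to the FPKM sum without Alb and the tests of ratios were added after seeing the data. In simulated libraries for dpc16 against NP over 12952 genes, 96 of 102 genes changed by 2 on the log2 scale were called, 64 of 98 changed by 1, and 7 of 12752 unchanged genes. The simulated noise was independent between libraries, so these counts do not measure false calls where libraries deviate together.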

Additional observations from a re-analysis of the deposited data

How the results depend on the processing

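The counts below are of calls among the 8 genes, over all the comparisons of a kind. For zone 1 against zone 3 at each stage the count was 3, and it became 6 with quantile normalization, 8 with array weights, 8 when the connective tissue mean was a covariate, 9 once the 6 libraries with Y-linked FPKM were left out and 5 when scaled to the FPKM sum without Alb. For zones over the mean of the stages it was 4, and 10, 11 and 11 with array weights, the covariate and without those libraries. Of these, zone 1 against zone 3 held 1 gene higher and 1 lower, but 2 and 2 with quantile normalization and 2 and 1 with scaling without Alb. Those 2 scalings called 2.56% and 3.11% of all genes for zones over the stages. For dpc8 against NP in each zone the count was 0, and 1 with the covariate and 1 without those libraries. For stages over the mean of the zones it was 5, and 11, 8 and 11 with array weights, the covariate and without those libraries, and 3 when only the groups compared were fitted. Scaling without Alb added Ttr at dpc8 against NP and at dpc16 against dpc8 there (12.1% of all genes). For dpc16 against NP in each zone the count was 2, and 1 without the filter (1.32% of all genes) and 1 with median-of-ratios scaling (1.7%). It was 8, 6 and 9 with array weights, the covariate and without those libraries, 0 with only the groups compared and 4 with scaling without Alb. For dpc16 against dpc8 in each zone it was 1, and 0 without the filter (1.1% of all genes) and 2 with quantile normalization (1.52%). It was 8, 5 and 10 with array weights, the covariate and without those libraries, 2 with only the groups compared and 4 with scaling without Alb. In the fit with a replicate block over all stages the counts were 0 for dpc16 against dpc8 in each zone (1.95% of all genes) and 3 for zone 1 against zone 3 at each stage (1.59%). With the replicate block by stage they were 2 for dpc16 against dpc8 in each zone (1.76%), 3 for stages over the mean of the zones (4.34%), 4 for zone 1 against zone 3 at each stage (2.39%), 5 for zones over the mean of the stages (4%) and 3 for dpc16 against NP in each zone (1.98%). The block by stage added Hpx between zones 1 and 3 at dpc16 (adjusted p = 0.0141), Alb between zones 1 and 3 over the stages (0.0198), Alb at dpc16 against NP in zone 3 (0.0324) and Alb at dpc16 against dpc8 in zone 3 (0.0356). The share of all genes called was 1.5% (zone 1 against zone 3 at each stage), 2.8% (zones over the stages), 1.78% (dpc16 against NP in each zone) and 1.63% (dpc16 against dpc8 in each zone). It was 4.17%, 5.94%, 6.55% and 9.18% with array weights, 2.27%, 4.55%, 4.45% and 4.33% with the covariate, and 2.42%, 4.25%, 3.66% and 4.05% without the 6 libraries. With only the groups compared it was 0.963%, 2.66%, 0.299% and 0.695%. Zone 1 against zone 3 had 1.45% with quantile normalization. Scaling without Alb gave 1.72%, 3.83% and 4.32% for the zone 1 against zone 3, dpc16 against NP and dpc16 against dpc8 comparisons of single groups. For stages over the mean of the zones it was 7.66%, and 16.7%, 13.2%, 11.9% and 6.59% in those 4 fits. For dpc8 against NP in each zone it was 0.018%, and 0.0695% and 0.0592% with the covariate and without the 6 libraries. The cause of these shifts was not tested.

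On leaving out each library in turn, the counts ranged from 2 to 4 for zone 1 against zone 3 at each stage, 3 to 7 for zones over the mean of the stages, 0 to 0 for dpc8 against NP in each zone, 3 to 9 for stages over the mean of the zones, 1 to 5 for dpc16 against NP in each zone and 0 to 4 for dpc16 against dpc8 in each zone. No share of all genes stands beside these ranges, so their shifts cannot be told from shifts among all genes. The count for differences between zones in the change with stage was 0 in all of these fits. Of single differences with an unadjusted p under 0.05, 376 results under alternatives other than leaving out 1 library kept their direction and side of the threshold, 86 newly passed, 20 no longer passed and 2 changed sign. On leaving out 1 library, 1076 were kept, 27 newly passed and 85 no longer passed.

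Under quantile normalization Gc changed sign at dpc16 in zone 1, to -0.18 against NP and -0.26 against dpc8, and Alb was set to 0 because it ranks first in every library, which ended its 3 calls. Calls of Hpx were also lost at dpc16 against NP without the filter (adjusted p = 0.0541), with quantile normalization (0.0993), with only the groups compared (0.0757) and in the replicate block over all stages (0.0515), and against dpc8 with quantile normalization (0.0780) and only the groups compared (0.0632). Serpina7 between zones 1 and 2 was lost without the filter (0.0572), with quantile normalization (0.0842) and with only the groups compared (0.132). Alb at dpc16 against dpc8 in zone 1 was lost without the filter (0.0558) and in the replicate block over all stages (0.0588). The value of 1 read on 1 kb, up to 0.133 FPKM, limits Afp and Serpina7 in zone 1.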
